A study of Mus musculus with 24 samples.

Results

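The genes described here are 10 genes whose transcripts mark lipid-associated macrophages, namely Trem2, Gpnmb, Spp1, Lgals3, Itgax, Cd9, Cd63, Cd68, Pla2g7 and Tyrobp. They were picked by name among the 34947 gene names on the array, with their levels by strain and tissue in view, so their strain differences are described and not tested. All 10 were found, through 12 probes, with 2 probes each for Cd68 and Pla2g7. The probe with the highest mean signal stood for the gene.

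Lipid-associated macrophages gather around dying or overfilled adipocytes in obese fat, take up the released lipid and break it down in their lysosomes. The surface receptor Trem2 binds lipids and signals through the adaptor Tyrobp, and Trem2 is needed for much of this programme in mouse fat. The other genes encode a lysosomal and melanosomal glycoprotein (Gpnmb), the secreted protein osteopontin (Spp1), a galectin that binds damaged lysosomes (Lgals3), the integrin subunit CD11c (Itgax), tetraspanins (Cd9, Cd63), a lysosomal membrane glycoprotein of macrophages (Cd68) and a secreted enzyme that breaks down platelet-activating factor (Pla2g7).

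RNA came from male mice of 2 inbred strains, NZO/HiBomDife (New Zealand Obese, here NZO), which becomes obese and is prone to diabetes, and C57BL/6 (B6), a lean reference strain. Both strains received a high-fat diet of 45% fat, and the RNA was taken at 6 weeks of age from the gonadal white fat pad (gWAT), the brown fat (BAT) and skeletal muscle, with no group on another diet. Each of the 6 groups held 4 single-colour Agilent arrays. The labels do not say whether arrays of a group came from separate animals, so the spread between arrays may be technical in part.

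Each level rests on a short stretch of the transcript that the array can bind. The first 30 bases of the 60-base probes are shown for the receptor Trem2, with a wide strain difference in gWAT (mm9 chr17:48491537-48491596, plus strand). They are also shown for both probes of Pla2g7, the gene with opposite differences between tissues (mm9 chr17:43749032-43749091 and chr17:43731745-43731804, plus strand). The exon or untranslated region under each probe was not assigned here.
Trem2 probe: acagctggatggttgtctgtcaacttctgc
Pla2g7 first probe: ttacccaaataagcattttttaaatataca
Pla2g7 second probe: gtactacccagctcaagatcaaggtcgcct

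The promoters of these genes were searched for words of factors that are active in macrophages. RefSeq promoter sequences of the assembly GRCm38.p6, from 250 bases before to 50 bases after the start, were matched for 9 of the 10 genes, Tyrobp being without an entry. The AP-1 word TGACTCA, or TGAGTCA on the other strand, stood in the promoters of Gpnmb, Itgax and Cd68, against 5.2% of all 32851 promoters. The core word of PU.1, GAGGAA or TTCCTC, stood in those of Trem2, Spp1, Cd63 and Cd68, against 28.3% of all promoters. The 9 genes had 10 promoter entries, and the further entry of Spp1 held no match. The word TCACGTG, or CACGTGA on the other strand, which MITF and TFE factors bind, stood in none of them and in 3.77% of all promoters. No matches in these promoters overlapped. The stretches below run 5′ to 3′ on the gene's strand, with the AP-1 word in capitals for Gpnmb, Itgax and Cd68 and the PU.1 word in capitals for Trem2 and Spp1. They lie at chr6:49036458-49036537 (plus), chr7:128129470-128129549 (plus), chr11:69666171-69666330 (minus), chr17:48346341-48346400 (plus) and chr5:104434991-104435050 (plus). A match describes the letters of the window and is not a measured binding site.
Gpnmb: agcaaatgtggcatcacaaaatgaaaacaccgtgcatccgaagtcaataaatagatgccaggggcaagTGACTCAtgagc
Itgax: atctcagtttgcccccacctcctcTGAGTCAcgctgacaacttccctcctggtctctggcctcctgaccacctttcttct
Cd68: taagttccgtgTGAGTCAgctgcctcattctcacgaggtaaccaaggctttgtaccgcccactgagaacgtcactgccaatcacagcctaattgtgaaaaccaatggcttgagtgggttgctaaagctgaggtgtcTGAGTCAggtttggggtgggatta
Trem2: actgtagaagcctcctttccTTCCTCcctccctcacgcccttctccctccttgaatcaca
Spp1: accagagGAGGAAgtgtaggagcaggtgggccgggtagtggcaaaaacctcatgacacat

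A level is the log2 processed signal minus the array's 75th percentile, so 0 is the signal that 75% of probes lie under, and differences are NZO minus B6 with the standard error (SE) of a limma fit. Levels are compared between arrays for a gene, never between genes. A summed level is the log2 of the signals of a list's genes added up on an array, relative to its 75th percentile. The brightest genes of a list therefore weigh most in it, and it is not a mean of levels. The 75th percentile ranged from 238 to 360 signal units in gWAT, 134 to 178 in BAT and 143 to 235 in muscle, and no probe of these arrays was saturated. B6 muscle array 011 goes against its label. On it Ifi202b, which was not well above background on any of the other 11 B6 arrays, read 2.07, and the fat genes Lep and Adipoq read 3.64 and 6.79 against at most -3.14 and 3.37 on the other B6 muscle arrays. The muscle values below leave it out, with 3 B6 arrays, and are given with it where they change.

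In NZO gWAT all 10 genes were higher than in B6 gWAT on every array, by 1.5-fold (Cd63) to 32.6-fold (Gpnmb) where both strains were well above background on every array, with a median difference of 2.22 against a median of 0.00 over all genes tested. For comparison, 18.3% of 21659 genes were higher in NZO gWAT without overlap and 17.6% were lower. As the genes were chosen on this contrast, nothing is read from their count. Fewer cells of a type and less RNA per cell cannot be told apart in whole tissue. Arrays are given below in the order 003, 007, 009 and 012 for NZO gWAT and 009, 010, 011 and 015 for B6 gWAT.

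The receptor Trem2 read 5.10, 5.02, 5.0 and 5.43 in NZO gWAT and 0.54, 0.54, 0.90 and 0.93 in B6 gWAT. The NZO arrays lay close together and more than 4 log2 units above the highest B6 array, with a difference of 4.41 (SE 0.15), or 21.2-fold. Its adaptor Tyrobp, which also serves other myeloid receptors, read 5.08, 5.14, 5.11 and 5.36 against 3.39, 3.47, 3.62 and 3.70. Both groups of arrays were tight and apart, and the difference was 1.63 (SE 0.11), or 3.09-fold. NK cells also express Tyrobp, and the summed level of 5 NK cell markers was 3.21 to 3.98 in NZO gWAT and 2.24 to 2.85 in B6 gWAT, with 4 of 5 called higher and none lower, nor at an unadjusted p under 0.05.

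Gpnmb read 3.64, 2.88, 3.07 and 3.83 in NZO gWAT and -1.85, -1.96, -1.95 and -0.92 in B6 gWAT. B6 array 015 stood above the other B6 arrays but 3.80 log2 units below the lowest NZO array. The difference was 5.03 (SE 0.30), or 32.6-fold. Melanocytes also express Gpnmb. Of 3 melanocyte markers tested in gWAT none was called higher in NZO and 1 was called lower by limma. At an unadjusted p under 0.05 none was higher and 2 were lower, and Tyrp1 and Slc45a2 were not well above background on any gWAT array. The summed level of 6 melanocyte markers was 0.34 to 1.12 in NZO and 1.33 to 1.74 in B6.

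Cd68, which sits in the membrane of macrophage lysosomes, read 4.67, 4.56, 4.35 and 4.68 in NZO gWAT against 2.28, 2.06, 2.21 and 2.11 in B6 gWAT. The strains were far apart, by 2.40 (SE 0.11) or 5.28-fold, and the second Cd68 probe gave 2.55. Lgals3 read 7.55, 7.26, 7.49 and 7.43 against 5.51, 5.34, 5.08 and 5.65, a difference of 2.04 (SE 0.14) or 4.11-fold. Itgax, a marker shared by these macrophages and dendritic cells, read 2.92, 2.77, 2.73 and 2.83 against -0.08, 0.00, -0.58 and 0.53, a difference of 2.85 (SE 0.21) or 7.19-fold. The B6 arrays were the more scattered for both genes, with no overlap. The summed level of 7 dendritic cell markers was 1.06 to 1.44 in NZO gWAT and 1.04 to 1.29 in B6 gWAT, overlapping. Of 6 of these markers tested in gWAT 3 were called higher in NZO and 1 lower, and Xcr1 was not well above background on any gWAT array.

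Osteopontin (Spp1) was at the edge of measurement in B6 gWAT. It read 0.51, -0.56, -0.24 and 0.93 in NZO and -3.51, -7.05, -5.02 and -2.34 in B6, where 2 of 4 arrays (009 and 015) were well above background. The fitted difference of 4.64 (SE 0.92) therefore has no firm size, and with normexp background correction it was 1.97. The strains did not overlap.

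Pla2g7 read 2.44, 2.03, 2.25 and 2.62 in NZO gWAT against -0.14, 0.11, 0.53 and 0.83 in B6 gWAT, a difference of 2.0 (SE 0.23) or 4.01-fold, and its second probe gave 1.99. The tetraspanins had the narrowest gaps. Cd9 read 3.15, 2.86, 3.10 and 2.97 against 1.98, 1.89, 1.91 and 2.60, with B6 array 015 only 0.26 below the lowest NZO array and a difference of 0.92 (SE 0.17) or 1.90-fold. Cd63, an abundant protein of late endosomes in many cell types, read 7.12, 7.42, 7.31 and 7.28 against 6.58, 6.57, 6.88 and 6.77, a difference of 0.58 (SE 0.12) or 1.5-fold. Both were higher in NZO without overlap, but by less than 1 log2 unit.

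B6 array 015 was the highest B6 gWAT array for 8 of the 10 genes, and NZO array 012 was the highest NZO gWAT array for 6. All 10 genes stayed apart without any 1 array and under each of the other scalings run. Some arrays of both strains shared a slide. On slide 4, with 1 array of each strain, every gene was higher in NZO, from 0.84 for Cd63 to 4.73 for Gpnmb, and Trem2 differed by 4.48. On slide 6, with 2 NZO arrays and 1 B6 array, the differences ran from 0.45 for Cd63 to 4.27 for Gpnmb, and Trem2 differed by 4.12.

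**Figure D1:**
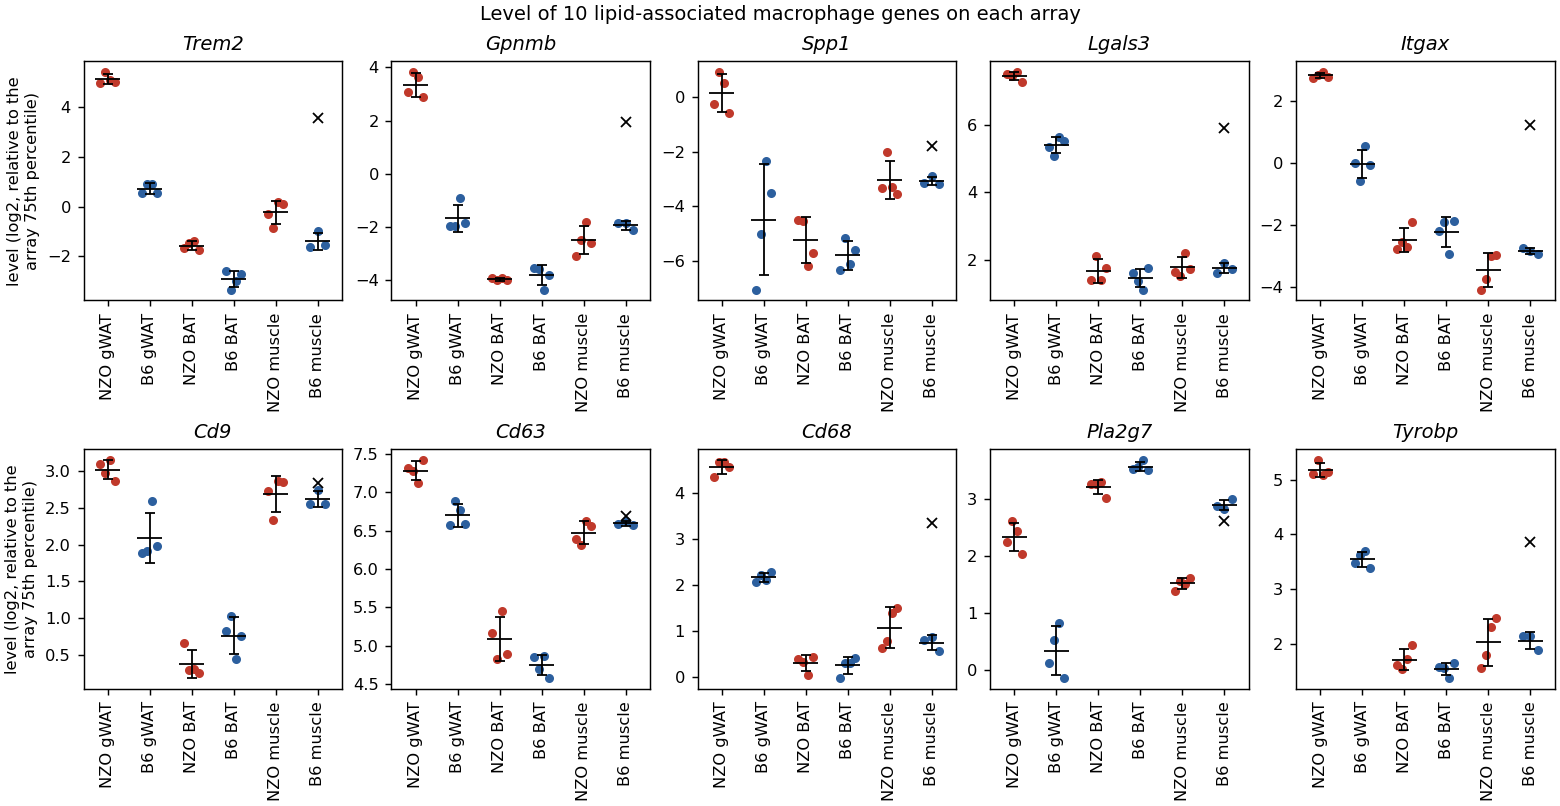
Level of each of the 10 genes (log2, relative to the array's 75th percentile) on every array, by strain and tissue, red for NZO and blue for B6. Bars are the mean and SD of 4 arrays (3 for B6 muscle), and the cross is B6 muscle array 011, which is left out of them. NZO gWAT has the highest mean for every gene but Pla2g7, whose highest mean is in B6 BAT.

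Macrophage genes in general were also higher in NZO gWAT. On each array the mean level of 20 genes of resident macrophages and monocytes was 2.04 ± 0.08 (SD, n = 4) in NZO gWAT and 1.15 ± 0.18 (SD, n = 4) in B6 gWAT, higher in NZO by 0.89 without overlap. This mean was then subtracted from each array, a comparison chosen after seeing the data. As the 10 genes were chosen on this contrast, the values left are a description. No share over all genes was taken after the subtraction. The values also depend on which genes are averaged, among them Itgam at -0.83 and Aif1 at 1.88. Trem2 remained higher by 3.51, Gpnmb by 4.13, Itgax by 1.95, Cd68 by 1.51, Lgals3 by 1.14, Pla2g7 by 1.11 and Tyrobp by 0.73, and Spp1, with its loosely measured B6 level, by 3.74. The tetraspanins did not stay higher. Cd9 differed by 0.03 with overlapping arrays, and Cd63 was lower in NZO without overlap, at -0.31.

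In BAT the picture was different. Of the 9 genes measured there, 1 was higher in NZO without overlap, 1 was lower and 7 overlapped, and the median difference was 0.05 against 0.00 over all genes tested. Without overlap 10.7% of 20806 genes were higher in NZO BAT and 11.4% were lower, and nothing is read from the members' counts beside these shares, here or in muscle. Spp1 was not well above background on any BAT array. Arrays are given in the order 003, 007, 009 and 011 for NZO BAT and NZO muscle, and 009, 010, 011 and 015 for B6 BAT.

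Trem2 read -1.37, -1.76, -1.66 and -1.47 in NZO BAT against -2.73, -2.58, -3.34 and -3.0 in B6 BAT. Every NZO array was above every B6 array, by 1.35 (SE 0.18) or 2.55-fold, although these levels were the lowest for Trem2 in the study, and the difference was 0.56 under normexp and 0.71 in the deposited series table. Pla2g7 read 3.30, 3.03, 3.26 and 3.27 in NZO BAT against 3.51, 3.53, 3.57 and 3.69 in B6 BAT. NZO was thus the lower strain for Pla2g7 here, by -0.36 (SE 0.09) and without overlap, and the second probe gave -0.43. With each array centred on its median the strains overlapped for Pla2g7.

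The other differences in BAT were small beside those in gWAT. Cd68 differed by 0.05 (SE 0.13), Tyrobp by 0.18 (SE 0.12), Lgals3 by 0.21 (SE 0.21) and Cd63 by 0.34 (SE 0.15), and Gpnmb differed by -0.14 (SE 0.18), Itgax by -0.25 (SE 0.28) and Cd9 by -0.38 (SE 0.15). On slide 3, which held 1 BAT array of each strain, Trem2 was higher in NZO by 1.24 and Pla2g7 lower at -0.66. On that slide Itgax (1.01) and Gpnmb (0.35) were higher in NZO, opposite to their group differences, and Lgals3 (0.66) and Tyrobp (0.60) were further apart than the groups. NK cell markers summed to 3.02 to 3.95 in NZO BAT and 2.05 to 2.55 in B6 BAT, with 3 of 5 called higher, and their part in the BAT values was not tested. Muscle RNA also differed between the strains in BAT. The summed level of 8 muscle fibre genes was 7.63 to 9.71 in B6 BAT and -0.16 to 2.79 in NZO BAT, with 8 of 8 called lower in NZO, and its part in the values for Pla2g7, which was high in B6 muscle, was not tested.

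In muscle 1 of the 10 genes was higher in NZO without overlap, 2 were lower and 7 overlapped, with a median difference of 0.00 against -0.03 over all genes tested. Without overlap 10.7% of 20849 genes were higher in NZO muscle and 16.8% were lower. With B6 array 011 included, none was higher, 2 were lower and 8 overlapped.

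Pla2g7 read 1.5, 1.62, 1.39 and 1.57 in NZO muscle against 3.0, 2.88 and 2.83 on B6 muscle arrays 009, 010 and 015. The B6 arrays were all above the NZO arrays, so the direction was opposite to that in gWAT, with a difference of -1.38 (SE 0.10), B6 being 2.60-fold higher, and -1.48 by the second probe. With array 011 included the difference was -1.31. Trem2 read 0.18, 0.09, -0.31 and -0.85 in NZO muscle against -1.56, -1.63 and -0.99, a difference of 1.17 (SE 0.29) or 2.25-fold. Only 0.13 log2 units separated the nearest arrays of the strains, which overlapped under median centring and normexp, and with array 011 included the difference was -0.07. Itgax read -2.99, -2.97, -4.07 and -3.73 in NZO muscle against -2.92, -2.72 and -2.82, lower in NZO by -0.62 (SE 0.29) with a gap of 0.05.

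The 7 overlapping genes differed in muscle by -0.56 (Gpnmb) to 0.33 (Cd68), and Lgals3, Spp1 and Tyrobp differed by 0.02, 0.02 and -0.03. On slide 4, with 1 muscle array of each strain, Pla2g7 was lower in NZO at -1.38 and Trem2 higher by 1.65, while Itgax differed by -0.05. The direction for Pla2g7 and Trem2 was therefore the same on a shared slide.

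**Figure D2:**
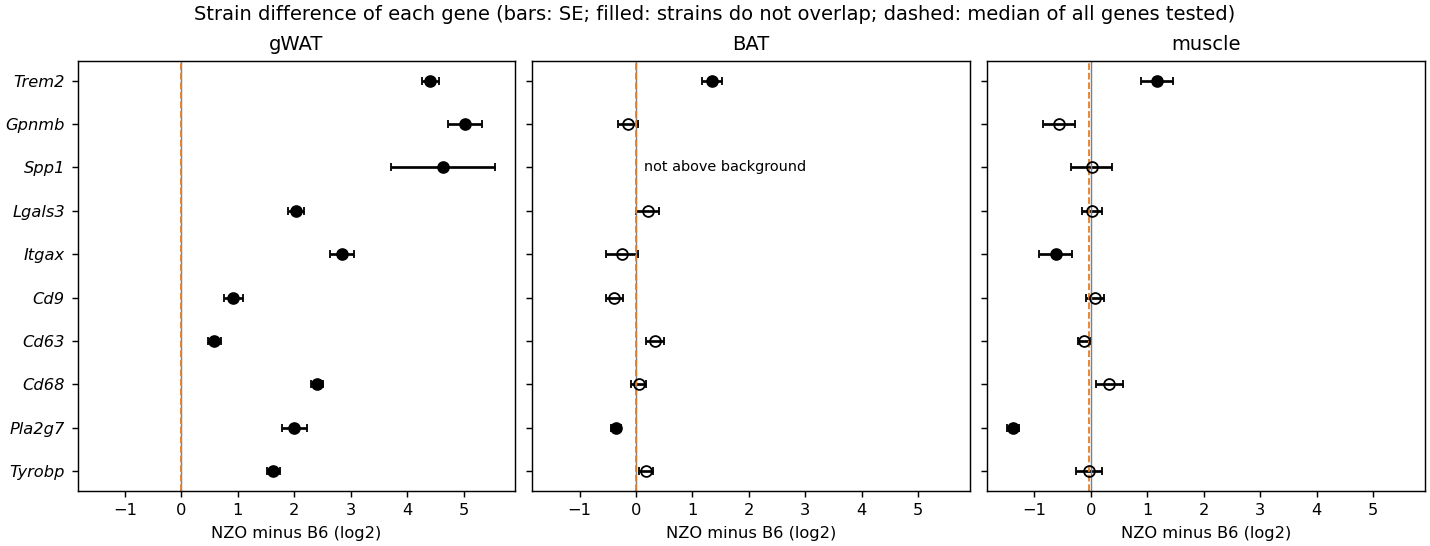
Strain difference (NZO minus B6, log2) of each gene in gWAT, BAT and muscle, without B6 muscle array 011, with bars for the SE of the limma fit, filled points where no array of a strain overlaps the other strain, and a dashed line at the median of all genes tested. In gWAT all 10 points lie to the right, from 0.58 to 5.03, while in BAT and muscle only Trem2 lies to the right without overlap.

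Across the 6 groups, 9 of the 10 genes had their highest mean in NZO gWAT. For Trem2 the order was NZO gWAT (5.14 ± 0.20, SD, n = 4), B6 gWAT (0.73 ± 0.22, SD, n = 4), NZO muscle at -0.22, B6 muscle at -1.39, NZO BAT at -1.56 and B6 BAT at -2.91, and of these neighbours only B6 muscle and NZO BAT overlapped. Lgals3, Cd68, Tyrobp and Itgax likewise had NZO gWAT first and B6 gWAT second, each apart from the next. Their BAT and muscle levels overlapped for Lgals3 and in part for Tyrobp and Itgax. For Cd68 every muscle array (lowest 0.56) lay above every BAT array (highest 0.42). For Gpnmb, B6 gWAT (-1.67) overlapped B6 muscle (-1.93), and both strains' BAT levels came last at -3.81 and -3.96. Spp1 had both muscle groups (-3.05 in NZO, -3.07 in B6) between NZO gWAT (0.16) and B6 gWAT (-4.48), the latter overlapping them.

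Cd9, Pla2g7, Itgax and Spp1 had an order of tissues unlike that of macrophage genes. The summed level of the 20 resident macrophage and monocyte genes was 7.61 to 7.81 in NZO gWAT, 6.68 to 7.08 in B6 gWAT, 5.97 to 6.50 in NZO muscle, 5.88 to 5.92 in B6 muscle, 5.23 to 5.53 in NZO BAT and 5.08 to 5.40 in B6 BAT. Cd9 was higher on average in muscle (NZO 2.69, B6 2.62) than in B6 gWAT (2.10), and so was Spp1, with overlap. Itgax was higher on average in BAT (B6 -2.22, NZO -2.47) than in muscle (B6 -2.82, NZO -3.44). Cd63 followed the macrophage genes in its order of tissues, but its levels in B6 gWAT (6.70), B6 muscle (6.59) and NZO muscle (6.47) overlapped from each to the next. Pla2g7 ran from B6 BAT (3.57) through NZO BAT (3.22), B6 muscle (2.90), NZO gWAT (2.34) and NZO muscle (1.52) to B6 gWAT (0.33), and no neighbours overlapped. Its highest level was thus in the group where the macrophage genes were lowest, so the label of lipid-associated macrophage gene is not borne out by its levels outside gWAT.

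B6 muscle array 011 read above all the other B6 muscle arrays for 9 of the 10 genes, by only 0.09 for Cd9 and 0.06 for Cd63. No share over all genes was taken for this array, so nothing is read from these counts. Trem2 was 3.59 there against -1.63 to -0.99, Gpnmb 1.94 against -2.12 to -1.83, and Lgals3 5.89 against 1.63 to 1.92. The exception was Pla2g7, which read 2.61 against 2.83 to 3.0. The array was also above every B6 gWAT array for 9 genes, all but Cd63, by as little as 0.16 for Tyrobp. It was below the NZO gWAT mean by 1.55 for Trem2, 1.41 for Gpnmb, 1.95 for Spp1, 1.55 for Lgals3 and 1.61 for Itgax. For Cd68 it was below by 1.21, for Tyrobp by 1.31, for Cd63 by 0.59 and for Cd9 by 0.18. Pla2g7 lay above that mean. Muscle RNA was still abundant on it, with Acta1 at 10.28 and Ckm at 9.57. Ifi202b at 2.07 lay below the NZO gWAT range of 3.68 to 4.14, and Ttc8, which read at most -5.97 in NZO muscle, read -1.32 against -0.76 to -0.54 on the other B6 muscle arrays. How this RNA came about was not tested.

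**Figure D3:**
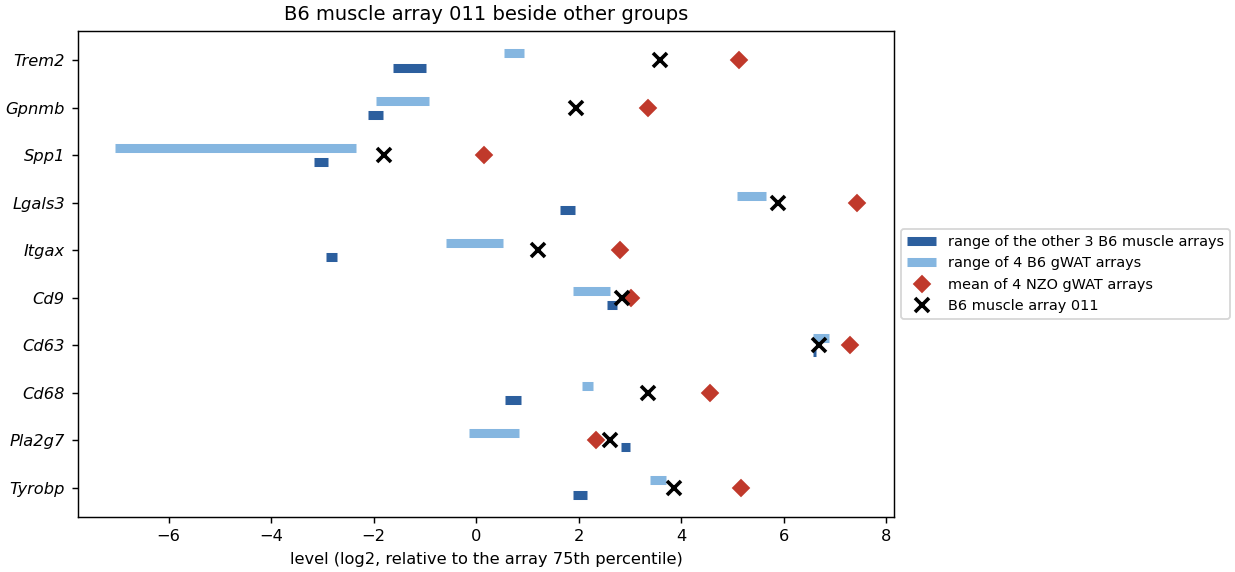
Level (log2, relative to the array's 75th percentile) of each gene on B6 muscle array 011 (cross), with the range of the other 3 B6 muscle arrays (dark blue), the range of the 4 B6 gWAT arrays (light blue) and the mean of the 4 NZO gWAT arrays (red). For Trem2, Gpnmb, Spp1, Lgals3, Itgax, Cd9, Cd68 and Tyrobp the cross lies between the B6 gWAT range and the NZO gWAT mean.

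Related genes outside the 10 were tested by limma over all genes, with Benjamini-Hochberg adjustment. In gWAT 15.9% of 21670 genes were called higher in NZO and 15.7% lower, in BAT 7.54% and 8.06% of 20823, and in muscle 4.67% and 6.01% of 20926. The strain difference itself differed between gWAT and BAT for 18.3% of 23395 genes and between gWAT and muscle for 20.2%, and both comparisons share the gWAT arrays. These shares are over genes tested in any tissue, while such counts for the lists below are over genes tested in both.

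Genes of lipid handling and the lysosome were higher in NZO gWAT. Of 28 tested, 21 were called higher, none lower and 7 did not pass, with 1 lower at an unadjusted p under 0.05, and the list's median was 0.90. Mmp12, among those called higher, was well above background on only 3 of 4 B6 gWAT arrays and was tested through its NZO arrays. Atp6v0d2, a subunit of the lysosomal proton pump, was higher by 5.31 (SE 0.15, adjusted p = 6.09e-07). Nceh1, which hydrolyses cholesterol esters, was higher by 2.75, the lysosomal lipase Lipa by 2.39 and the protease Ctss by 2.26, each with a limma adjusted p of at most 2.55e-05. The adipocyte fatty acid-binding protein Fabp4 differed by 0.07 and its relative Fabp5 by 0.32, and neither passed. In BAT 1 gene, Lpl, was called higher and 3, Ctsd, Ctsb and Npc1, were called lower. In muscle 3, Lpl, Cstb and Lipa, were called higher and none lower, with none lower at an unadjusted p under 0.05 either. These few genes were named after their values were seen. The strain difference differed between gWAT and BAT for 19 of the 27 genes tested in both. Between gWAT and muscle it differed for 15 of 26.

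Partners of Trem2 and Tyrobp in signalling were also mostly higher in NZO gWAT, with 12 of 16 called higher, 1 lower and 3 not passing, and a median of 0.87. Card9, among those called higher, was well above background on only 2 of 4 B6 gWAT arrays and was tested through its NZO arrays. The adaptor Lat2 was higher by 2.62, the macrophage membrane protein Ms4a7 by 2.28, the Fc receptor gamma chain Fcer1g by 1.82 and the exchange factor Vav1 by 1.69, with limma adjusted p-values of at most 0.000439. The adaptor Hcst (0.03) and the receptor Treml4 (-0.16) did not pass. Trem1, an inflammatory receptor that also uses Tyrobp, fell by 0.54, and was named after its value was seen. In BAT Fcer1g and Adam17 were called higher and none lower, with none lower at an unadjusted p under 0.05. In muscle Trem1 was called lower and none higher, with 3 higher at an unadjusted p under 0.05. The strain difference differed between gWAT and BAT for 8 of the 12 genes tested in both. Between gWAT and muscle it differed for 7 of 13.

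Receptors of osteopontin and leukocyte integrins were split. Of 11 tested in gWAT 5 were called higher, 2 lower and 4 did not pass, with a median of 0.34. Itgb2, the partner chain of Itgax, rose by 1.74 (adjusted p = 0.0001 by limma), and the hyaluronan and osteopontin receptor Cd44 by 1.69 (adjusted p = 2.26e-05 by limma). Itgal rose by 0.96, but its limma adjusted p of 0.0208 became 0.0516 without B6 array 010 and 0.0513 without B6 array 015. Itgad, also called higher, was well above background on every NZO gWAT array and on no B6 gWAT array. Itgav (0.34) and Itgb1 (0.30), which form osteopontin receptors, did not pass. Itgb3, another osteopontin receptor chain, fell by 1.24 in gWAT, and was the only gene of the list called in BAT (-2.37) and in muscle (-1.74), lower in NZO each time. Itgam was the other gene called lower in gWAT.

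The relatives of Lgals3 and of the tetraspanins did not share one direction. The list of other galectins also held Lgals3bp, a protein that binds a galectin and is not one. Of its 7 genes tested in gWAT none was called higher and 2 were called lower. The median of -0.21 was the value of Lgals3bp. At an unadjusted p under 0.05 these counts were 1 and 3. Lgals2 fell by 3.70 (SE 0.33, limma adjusted p = 0.000111) and Lgals12, a galectin of adipocytes, fell by 1.21 (SE 0.11, limma adjusted p = 0.000141), while Lgals1 (0.37) and Lgals3bp (-0.21) did not pass. In BAT and in muscle no gene of this list was called by limma, with 1 lower in BAT and none in muscle at an unadjusted p under 0.05. Of 16 other tetraspanins 5 were called higher in gWAT and none lower, with 3 lower at an unadjusted p under 0.05, and a median of 0.16. The leukocyte tetraspanins Cd53 and Cd37 were higher by 1.46 and 1.03 and Tspan6 by 0.83, while Tspan32, at 0.56, had a limma adjusted p of 0.0424 that ranged from 0.0513 to 0.119 under the alternatives that ended its call. Cd81 (0.26) and Cd82 (-0.51) did not pass. Tspan14 was called higher in BAT and in muscle, Tspan15 lower in BAT and Tspan8 lower in muscle, named after their values were seen.

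Among enzymes and the receptor of platelet-activating factor, the lipid that Pla2g7 breaks down, 5 of 8 tested were called higher in NZO gWAT and 3 did not pass. None was lower at an unadjusted p under 0.05, and the median was 0.64. The receptor Ptafr was higher by 2.23 in gWAT, 0.77 in BAT and 1.1 in muscle, and was called in each. Pla2g4a, which releases the precursor, was higher in gWAT by 1.02, Pla2g15 by 0.87 and the hydrolase subunit Pafah1b3 by 0.83, while its partners Pafah1b1 (0.05) and Pafah1b2 (-0.22) did not pass. Pafah2, a hydrolase inside the cell, was called lower in BAT at -0.55.

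Of 12 regulators of macrophage lipid programmes 4 were called higher in NZO gWAT and none lower, with none lower at an unadjusted p under 0.05, and a median of 0.44. Among them the stress-induced factor Atf3 was higher by 3.10, PU.1 (Spi1), the master factor of myeloid cells, by 2.91 and Cebpb by 0.83, with limma adjusted p-values from 6.96e-06 to 0.0060. Mitf (0.52) and Tfeb (0.22), which drive lysosomal genes, did not pass. Cebpb was the only regulator called in BAT, lower in NZO at -0.42, and none was called in muscle by limma, where an unadjusted p under 0.05 gave 3 higher and 2 lower.

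Resident macrophage and monocyte genes were mostly higher in NZO gWAT, with 15 of 20 called higher, 2 lower (Mertk and Itgam) and 3 not passing, and a median of 1.03. Aif1 was higher by 1.88, Adgre1 (F4/80) by 1.87, Cx3cr1 by 1.70 and Fcgr1 by 1.67, with limma adjusted p-values of at most 0.000303. The resident markers were split, as Cd163 (-0.43) and Lyve1 (0.36) did not pass. Vsig4 (1.59), Folr2 (1.13), Mrc1 (1.09) and Timd4 (0.77) were called higher, and were named after their values were seen. In BAT 2 of 16 were called higher, Folr2 and Aif1, and 1 lower, Mertk. In muscle none of 19 was called by limma, where an unadjusted p under 0.05 gave 3 higher and 1 lower. The strain difference differed between gWAT and BAT for 9 of the 16 genes tested in both. Between gWAT and muscle it differed for 9 of 19. For the remaining lists the counts between gWAT and BAT were 3 of 10 integrins, 1 of 6 galectins and 4 of 15 tetraspanins. They were 5 of 8 for platelet-activating factor genes and 3 of 10 for regulators. Between gWAT and muscle they were 3 of 10, 1 of 6, 2 of 16, 1 of 8 and 3 of 10 in that order. The 16 are tetraspanins tested in muscle. Across all 8 lists, 7 of the genes named by a set rule and called in gWAT lost their calls on the slides with both strains. This alternative was chosen after seeing the data, and genes named outside the rule were not followed in it. The 7 were Itgal, Cd37, Tspan32, Cebpb, Pafah1b3, Pla2g15 and Pla2g4a, with limma adjusted p-values from 0.053 to 0.244.

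Markers of other cell types also moved with strain in gWAT. The summed level of 9 neutrophil markers was 3.67 to 4.51 in NZO and 1.32 to 2.10 in B6, with 3 of 6 tested called higher and 1 lower, and Ly6g was not well above background on any NZO array. The summed level of 5 B cell markers was 1.83 to 4.29 in NZO and 0.43 to 0.82 in B6, with 2 of 5 called higher. Brown adipocyte markers summed to 5.29 to 5.90 in NZO gWAT and 1.25 to 2.44 in B6 gWAT, with 4 of 6 called higher. Of 7 T cell markers none was called in gWAT by limma, nor at an unadjusted p under 0.05. Osteoclasts share Atp6v0d2 and Gpnmb, and 2 of 5 osteoclast markers tested were called higher, while their summed levels overlapped (8.09 to 8.79 in NZO, 8.24 to 8.47 in B6) and Calcr was not well above background on any gWAT array. The part of the neutrophil, B cell, NK cell, dendritic cell and brown adipocyte markers in the results for the 10 genes was not tested.

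Genes most like Trem2 and Gpnmb were ranked by the root mean square difference over the 23 arrays after centring each gene, among 23289 genes. Arrays share strain, tissue and slide, so the likeness is a description. Nearest to Trem2 were Rnase2a (0.72 log2 units), Gpnmb itself (0.79), the monocyte chemokines Ccl2 and Ccl7 (0.83 each) and the ribonucleases Ear10 (0.87) and Ear12 (0.90). Rnase2a, Ear10 and Ear12 belong to 1 family of similar sequences, so their probes may share signal. Nearest to Gpnmb were Trem2 (0.79), Atp6v0d2 (0.83), Gm5150 (0.85), LOC101056540 (0.88), the lectin Clec4d (0.94) and the chemokine Ccl9 (0.94). Ccl2 had mean levels of 4.75 in NZO gWAT and 1.26 in B6 gWAT and lay between -2.27 and -1.03 in BAT and muscle. Pla2g7 was the member farthest from Trem2, at 3.25.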

How the data were processed

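Each file came from 1 Agilent mouse array with a single dye. Per the file headers, the authors used Agilent Feature Extraction 11.0.1.1 to read the scans, while the submitters' processing notes name version 9.1. The deposited intensity (processed signal) was background-subtracted and detrended within the array, per the file headers, and not scaled between arrays. Other flags deposited per the file headers mark spots well above background, saturated or outlying. The deposited series table held the unscaled scanner intensity, not background-subtracted, and was used as an alternative.

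Control spots and outliers were left out, which left 55681 probes under 34947 names, 27656 probes named through RefSeq (GRCm38.p6). Levels were log2 intensity minus the array's 75th percentile. A gene was tested in a tissue if every array of 1 strain showed it well above background. Strains were compared in each tissue, and between tissues, with limma 3.58.1 (lmFit, eBayes) in R 4.3.3 with the package data.table (version 1.17.8). Calls were made at 0.05 after Benjamini-Hochberg adjustment, and every adjusted p comes from these fits. With 200 genes changed by 1.5 log2 units in simulated data, limma recovered 74% (gWAT), 79.5% (BAT) and 76% (muscle), and 3.27%, 7.02% and 6.17% of its calls were false. The simulation changed far fewer genes than were called in these data and drew independent noise without slides. Its rates therefore need not hold for these fits. The median SE was 0.165, 0.149 and 0.161 in the same order, and the number of arrays limits the precision. Probe positions are on mm9, as in the files. Figures were made in Python 3.11.15 (pandas 2.3.3, matplotlib 3.10.9).

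The members and lists were chosen with earlier results of these data known. Named beyond the 10 were, per list, up to 4 called genes with the largest gWAT difference that were well above background on all 8 arrays, at most 2 that did not pass, and the 6 genes most like Trem2 and Gpnmb. Of the genes this rule names, 1 is not reported here. Alternatives were median centring, quantile normalization, normexp (offset 50), the series table, all probes averaged, no filter on dim probes, slide and replicate number as blocks, array 011 included and each array left out. Samples of the same number in different tissues of a strain correlated from -0.27 to 0.44 over 17025 genes, and 11 of 20 pairs were above 0.1. Samples of different numbers were not set beside them, so these values do not decide whether the numbers pair samples. The main fits did not pair samples by number.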

Additional observations from a re-analysis of the deposited data

Results flagged for a closer look

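Each of the 10 genes was looked at in each of the 6 groups, and in 9 of these 60 sets 1 array was far from the others. For a single set chance gives about 1 in 20. The genes share the same arrays, so the sets are not independent and the 9 are not set against that rate. Of the 9, 6 were on B6 muscle array 011. On that array Trem2 read 3.59, Gpnmb 1.94, Lgals3 5.89, Itgax 1.21, Cd68 3.35 and Tyrobp 3.86, each far above the other B6 muscle arrays. The array, left out of the muscle comparison, read above every other B6 muscle array for 9 of the 10 genes. For Cd9 (0.09) and Cd63 (0.06) the margin was small, and no share over all genes was taken. On B6 gWAT array 015 Gpnmb (-0.92) and Cd9 (2.60) stood above the other B6 gWAT arrays, and on NZO BAT array 009 Cd9 (0.66) stood above the other NZO BAT arrays.

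Pla2g7 was lower in NZO BAT (-0.36) and in NZO muscle (-1.38) on every array and higher in NZO gWAT on every array. Itgax was lower in NZO muscle (-0.62) on every array and higher in NZO gWAT on every array. These differences between tissues were not tested, because the genes were chosen for their levels by strain and tissue. Over all genes the strain difference differed by limma between gWAT and BAT for 4276 genes and between gWAT and muscle for 4725.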

How the results depend on the processing

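All 10 genes stayed higher in NZO gWAT without overlap under every scaling and without any 1 array. Relative to resident macrophage genes, an alternative chosen after seeing the data, Cd63 was lower in gWAT at -0.31. For Trem2 in muscle the difference turned to -0.074 with B6 array 011 included and to -1.59 with the replicate block, a fit that also needs array 011. Within a tissue this block joins arrays of different strains, so of different animals, only because they share a number. No conclusion is drawn from it. Trem2 was no longer higher without overlap in muscle, leaving 0 genes, with array 011 included, under median centring and under normexp. In BAT the series table gave 2 genes higher and 2 lower, and median centring gave 0 lower. Leaving out arrays gave 10 genes higher in gWAT and 0 lower, 1 to 2 higher and 1 to 3 lower in BAT, and 1 higher and 2 to 4 lower in muscle.

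The genes called in gWAT, 6845 of all tested, ranged from 4901 (without B6 010) to 6752 without 1 array and were 1840 on the slides with both strains, also chosen after seeing the data. Median centring moved the median gWAT difference to 0.26 and the share of calls that were higher from 50.4% to 72.8%. In BAT 3248 genes were called, 2200 to 3346 without 1 array. In muscle 2235 were called, 995 to 1998 without 1 array (995 without B6 010, 1021 without B6 009, 1420 without NZO 007), 1087 with array 011 included, 1264 under median centring and 1383 with no filter on dim probes. The genes whose strain difference differed between tissues were 3340 to 4786 for BAT and 3409 to 5263 for muscle without 1 array. With the replicate block, which leaves 1 residual degree of freedom, 430 genes were called in BAT and 0 in muscle, where 1031 had an unadjusted p under 0.05. With strain and number as a block over all arrays the differences between tissues numbered 4619 for BAT and 5006 for muscle. The replicate block was not fitted within gWAT, where the strains share only the number 009. Apart from settings named here, the cause of these changes was not tested. Low signal limits Spp1 in B6 gWAT and in BAT.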
